A study of Homo sapiens with 24 samples.

Results

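The effect of cercosporamide on the amount of mRNA was examined in PANC1, an established human cell line derived from a pancreatic ductal adenocarcinoma. The comparison took 8 of the 24 libraries of the series, 4 of total cytosolic RNA from cells given 5 µM cercosporamide and 4 of total cytosolic RNA from cells given the solvent DMSO, each for 6 h. All 8 came from this line, and the replicate numbers 1 to 4 paired the treatments. Of 54583 genes in the count table, 24908 had a count in these libraries, and the 14511 with no zero count in any of the 8 were tested. The other 16 libraries held polysome-associated RNA of the same treatments and both fractions of cells given 40 µM CID661578.

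Cercosporamide is a fungal metabolite known to inhibit MNK1 and MNK2, the kinases that phosphorylate the cap-binding protein eIF4E, and it is also known to inhibit the kinase JAK3. In this line, however, the study reports more phosphorylated eIF4E after cercosporamide, given at a higher dose than here. MNK signalling acts on translation and on the stability of short-lived mRNAs, many of which encode cytokines. Total RNA reports how much of an mRNA a cell holds, whatever the share that is being translated. With no RNA spiked in, each change is relative to the other mRNAs of its library.

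Few genes were called changed in total RNA, and their number depended on the fit. Transcripts of the chemokines CXCL8 and CCL20, of the lipase inhibitor G0S2 and of MYEOV were higher after cercosporamide, whereas those of the transcriptional inhibitor ID2 and of the scaffold protein IQGAP1 were lower. These were 4 of 14511 genes called higher (0.0276%) and 2 called lower (0.0138%) at an adjusted p under 0.15, by the quasi-likelihood test of edgeR, Benjamini-Hochberg adjusted, with the replicate number as a block. The adjusted p was 0.0442 for CXCL8 and 0.132 for each of the other 5. At an unadjusted p under 0.05, 863 genes (5.95%) were higher and 748 (5.15%) lower. No gene was called without the replicate block (435 genes higher and 467 lower at an unadjusted p under 0.05) or without replicate 4 (408 and 384), only CXCL8 was called without replicate 1, and 360 genes higher and 107 lower were called without replicate 2. Each of the 6 genes kept its direction in all of these fits, with log2 changes of 2.56 to 3.24 for CXCL8. With DESeq2 size factors in edgeR 7 genes were higher and 2 lower, with DESeq2 itself 239 and 108, and with the GC trend of each library removed 430 and 133. In bulk RNA, fewer cells that express a gene and less RNA per cell cannot be told apart.

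The libraries held 9378714 to 12064739 counts, and no pair of libraries was alike within sampling noise (lowest chi-square per degree of freedom 18.5). Cercosporamide replicates 2 and 3 stood apart, at -67.0 and 65.1 on a first principal component that held 31.9% of the variance, against -24.2 to 33.5 for the other 6 libraries. Genes rich in G and C had higher values in replicate 2 (a slope of 0.46 log2 units per 10% GC against the mean of the 8 libraries) and lower values in replicate 3 (-0.362), against -0.118 to 0.149 elsewhere. The keratins of ductal epithelium were abundant (KRT8 2931 to 6374, KRT18 1861 to 4033 and KRT19 1007 to 2017 CPM, that is, counts per 1000000 after TMM scaling), but the epithelial cadherin CDH1 had 7 counts in the 4 DMSO libraries together and 0 with cercosporamide, and the duct marker CFTR had none. All 10 endocrine markers and 7 of 9 acinar markers were at 0 counts in all 8 libraries. Of 10 immune and endothelial markers, PTPRC, CD3E and CDH5 were at 0, and CD68, a lysosomal protein that is not restricted to immune cells, stood at 419 to 755 CPM. Without TMM scaling, and so not on the scale of the values above, the 10 summed to 456 to 559 CPM with DMSO and 413 to 682 CPM with cercosporamide.

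**Figure D1:**
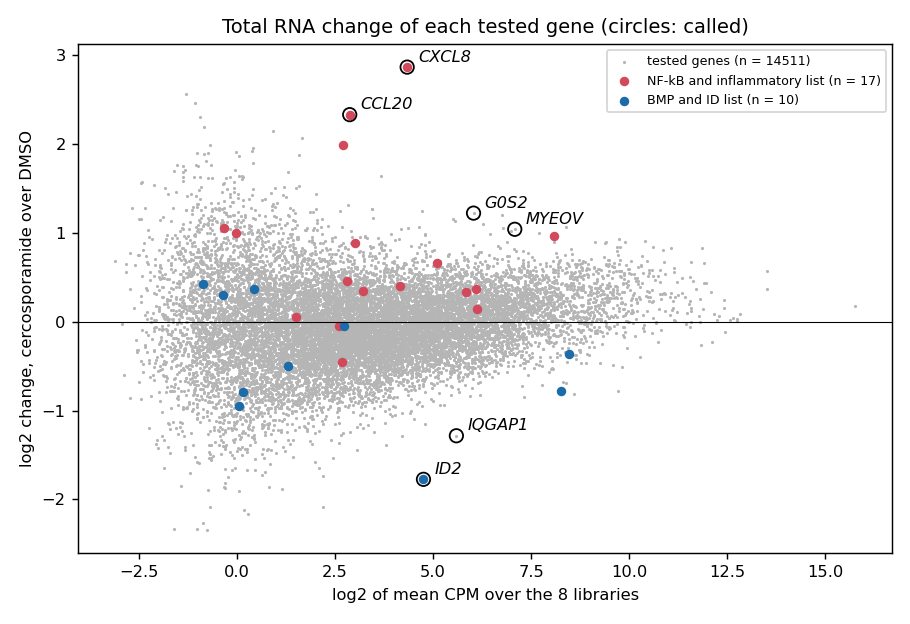
Each point is a tested gene (n = 14511), with the log2 of its mean CPM over the 8 libraries on the x axis and its fitted log2 change, cercosporamide over DMSO, on the y axis. Circles mark the 6 called genes, of which CXCL8 lies at 2.86 and ID2 at -1.77; red and blue points are the 17 and 10 tested members of the NF-kB and the BMP lists.

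CXCL8 encodes interleukin-8, which attracts neutrophils. The gene lies on chromosome 4 at 73740569 to 73743716 (RefSeq, GRCh38.p14). Its level was 2.05, 2.34, 7.61 and 3.35 CPM in DMSO replicates 1 to 4 and 8.30, 11.04, 93.6 and 33.4 CPM with cercosporamide. The groups did not overlap, and the value was highest in replicate 3 under both treatments. In all, 302 of the tested genes (2.08%) had every cercosporamide library above every DMSO library. The log2 change was 2.86 (SE 0.322), a 7.28-fold higher level, and the 4 pairs gave 1.93, 2.15, 3.59 and 3.25.

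CCL20, on chromosome 2 at 227813842 to 227817556, encodes the chemokine that binds CCR6. Its level was 0.186 (2 counts), 0.719, 6.26 and 0.900 CPM with DMSO and 0.898, 2.48, 42.8 and 4.25 CPM with cercosporamide. Each pair rose, by 1.54 to 2.74 log2 units, although the groups overlapped: replicate 3 was far above the other libraries under both treatments. Its fitted log2 change was 2.33 (SE 0.355), and the adjusted p was 0.18 without replicate 3 (edgeR).

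G0S2, on chromosome 1 at 209675412 to 209676390, encodes an inhibitor of adipose triglyceride lipase. It was at 25.0, 25.1, 81.1 and 30.8 CPM with DMSO and at 53.5, 60.6, 153 and 93.9 CPM with cercosporamide. The ranges overlapped through DMSO replicate 3 alone. The log2 change was 1.22 (SE 0.182), higher in 4 of 4 pairs. MYEOV, a gene on chromosome 11 at 69294155 to 69297287 that is known to be overexpressed in some myelomas, was at 77.9, 105, 114 and 58.3 CPM with DMSO and at 143, 248, 204 and 134 CPM with cercosporamide. Every cercosporamide library was above every DMSO library, and the log2 change was 1.04 (SE 0.160).

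ID2, on chromosome 2 at 8682056 to 8684461, encodes a helix-loop-helix protein that binds other such factors and keeps them off DNA. Its level was 58.6, 58.6, 13.7 and 37.5 CPM with DMSO and 16.5, 10.6, 4.88 and 15.3 CPM with cercosporamide. Replicate 3 was lowest under both treatments, so that its DMSO value fell within the range of cercosporamide. The log2 change was -1.77 (SE 0.246), a 3.42-fold lower level, and the pairs gave -1.82, -2.45, -1.46 and -1.28. IQGAP1, on chromosome 15 at 90388242 to 90502239, encodes a large scaffold that links actin, calmodulin and ERK signalling. It was at 65.9, 69.6, 85.8 and 52.7 CPM with DMSO and at 21.8, 28.2, 31.1 and 30.8 CPM with cercosporamide. The groups did not overlap, as for 320 genes with lower values (2.21%), and the log2 change was -1.28 (SE 0.198).

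**Figure D2:**
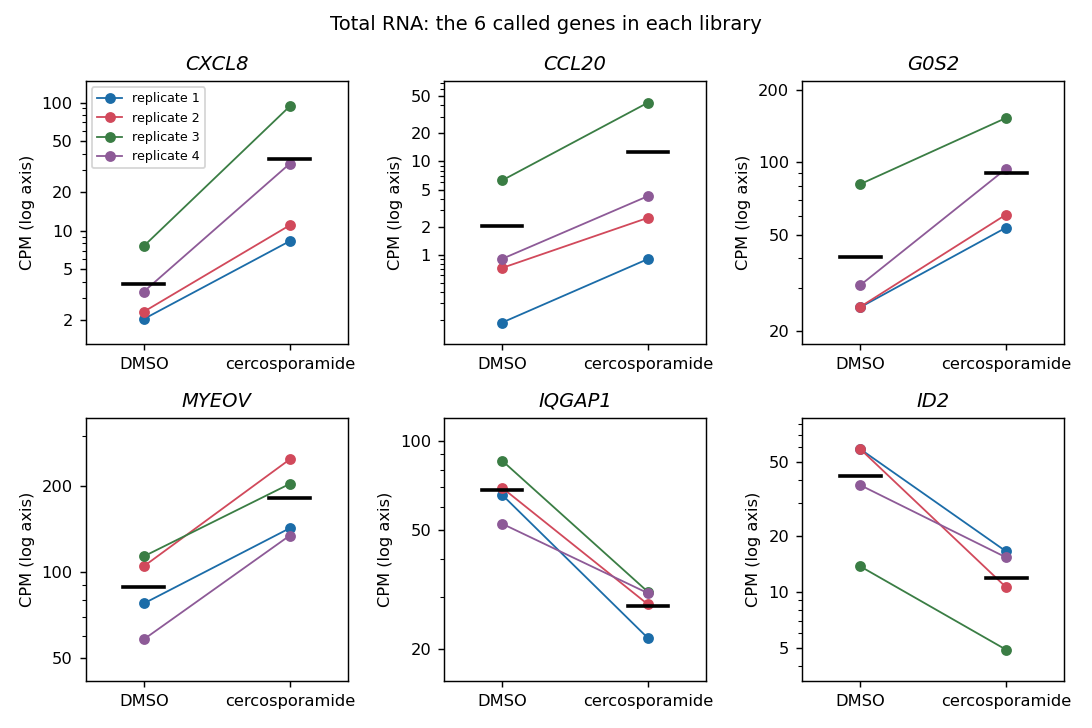
Each panel shows a called gene, with CPM on a log axis in the 4 DMSO and the 4 cercosporamide libraries; lines join libraries of the same replicate number and black bars are group means. CXCL8, MYEOV and IQGAP1 show no overlap between treatments, while replicate 3 is the highest for CCL20 and G0S2 and the lowest for ID2 in both.

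CXCL8 and CCL20 are textbook targets of NF-kB, a transcription factor held in the cytoplasm by inhibitors such as IκBα and released on inflammatory signals. The promoters of both, of the chemokine CXCL1 and, for contrast, of ID2 are shown because the first 3 genes had the largest values of the inflammatory list and ID2 the lowest of its own. They are RefSeq sequences of GRCh38.p14, all on the plus strand, and end at the base before the gene start: chr4:73740369-73740568 for CXCL8, chr2:227813642-227813841 for CCL20, chr4:73869193-73869392 for CXCL1 and chr2:8681906-8682055 for ID2. Capitals mark matches on either strand to GGNNNTTCC, letters like an NF-kB site, or to TGANTCA, letters like an AP-1 site. The motifs do not overlap each other in these windows.
CXCL8: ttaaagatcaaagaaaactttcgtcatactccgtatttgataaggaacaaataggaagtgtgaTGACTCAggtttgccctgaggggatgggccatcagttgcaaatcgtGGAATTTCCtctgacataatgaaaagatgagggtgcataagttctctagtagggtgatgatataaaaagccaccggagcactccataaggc
CCL20: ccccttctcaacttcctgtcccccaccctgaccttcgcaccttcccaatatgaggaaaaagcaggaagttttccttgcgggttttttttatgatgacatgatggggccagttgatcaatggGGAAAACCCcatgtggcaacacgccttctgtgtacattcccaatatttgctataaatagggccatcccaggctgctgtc
CXCL1: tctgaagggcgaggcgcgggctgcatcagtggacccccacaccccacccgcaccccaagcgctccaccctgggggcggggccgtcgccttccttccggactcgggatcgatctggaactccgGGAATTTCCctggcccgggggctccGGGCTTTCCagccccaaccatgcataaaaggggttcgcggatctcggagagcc
ID2: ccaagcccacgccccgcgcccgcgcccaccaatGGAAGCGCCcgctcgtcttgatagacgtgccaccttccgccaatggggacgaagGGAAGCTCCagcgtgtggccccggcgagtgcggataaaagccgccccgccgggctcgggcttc

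The NF-kB-like letters began 91 bases before the start of CXCL8, 79 bases before that of CCL20, and 78 and 53 bases before that of CXCL1. In ID2 they began 157, 117 and 63 bases before the start, the first of these outside the 150 bases printed. The AP-1-like letters began 137 bases before the start of CXCL8. In the 250 bases before the start, the NF-kB-like letters were present in 10 of the 13 tested members of the inflammatory list that were searched (all but CCL2, LIF, NFKBIE and RELB), and in 2 of the 8 searched members of the BMP list (all but HEY1 and NOG), ID2 and MSX2. They were present in 17.1% of all 27305 promoters of this length, and the AP-1-like letters in 6.60%. The inflammatory list was made of genes already linked to NF-kB or inflammation, so its share of matches says nothing about cercosporamide. The motifs were chosen with the values known, and a match is a description of letters, not a measured binding site.

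The NF-kB and inflammatory list leaned upwards. Of its 23 genes 17 were tested, and 2 of these (CXCL8 and CCL20) were called higher and none lower. At an unadjusted p under 0.05, 7 were higher and none lower, where 5.95% and 5.15% of all genes tested were. A positive change was seen in 15 of 17, and the median log2 change was 0.452 against -0.031 over all genes tested. The median stood above 0 in each pair, at 0.389, 0.853, 0.663 and 0.83. With replicates 1 to 4 left out in turn it was 0.489, 0.608, 0.765 and 0.428. Without replicate 4 no member was called and 4 were higher at an unadjusted p under 0.05, against 408 of 14814 over all genes.

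The members named next were not called and were chosen after their values were seen. CCL2, a chemokine for monocytes, was at 178, 148, 179 and 220 CPM with DMSO and at 293, 247, 447 and 468 CPM with cercosporamide, with no overlap and a log2 change of 0.97 (SE 0.162, edgeR adjusted p = 0.173). CXCL1, another neutrophil chemokine, was at 2.80, 1.26, 3.65 and 2.54 CPM against 7.63, 5.61, 11.5 and 16.9 CPM, also without overlap, and its log2 change was 1.99 (SE 0.337, edgeR adjusted p = 0.173). For NFKBIA, which encodes IκBα and is itself induced by NF-kB, the change was 0.66 (SE 0.274, edgeR adjusted p = 0.407), positive in 3 of 4 pairs. LIF, a cytokine of the interleukin-6 family, gave 0.89 (SE 0.312, edgeR adjusted p = 0.345). Subunits of NF-kB itself gave small or mixed values, 0.33 for RELA, 0.05 for RELB, -0.46 for NFKB1 and -0.05 for NFKB2. The cytokine TNF was not tested because DMSO replicate 2 held none of it. Its counts were 10, 0, 30 and 5 with DMSO and 5, 24, 173 and 107 with cercosporamide, lower in replicate 1 and higher in the other 3 replicates. The other 5 untested members (CXCL2, CXCL3, IL6, IL1A and IL1B) had 0 to 15 counts over the 4 libraries of a treatment.

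ID2 was accompanied by lower values of other ID genes, which are induced by BMP signalling through SMAD factors. ID1 was at 394, 456, 241 and 437 CPM with DMSO and at 262, 297, 117 and 236 CPM with cercosporamide. The value was lower in 4 of 4 pairs, by -0.79 on the log2 scale (SE 0.153), but the adjusted p was 0.195 (edgeR) and the ranges overlapped. ID3 was at 410, 391, 411 and 377 CPM against 256, 293, 414 and 296 CPM, where only replicate 3 did not differ, and its log2 change was -0.36 (SE 0.159, edgeR adjusted p = 0.441). ID4 was too low to test, with counts of 10, 9, 1 and 4 against 0, 0, 7 and 2. Of the 15 genes of the BMP list 10 were tested. Of these 1 was called lower and none higher, where 0.0138% and 0.0276% of all genes tested were. The median change was -0.427 against -0.031 over all genes tested, and the pairs gave -0.536, -0.154, -0.798 and -0.126. No member was called without replicate 1, without replicate 4 or without the replicate block. Members called lower were 2 with DESeq2 and 2 without replicate 2, against 108 and 107 over all genes. The inhibitory SMAD7 gave -0.49, the BMP antagonist NOG -0.05, and the homeobox genes MSX1 and MSX2 0.43 and 0.30, none of them called.

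No change was called for the genes of the kinases that cercosporamide is known to inhibit. MKNK1, which encodes MNK1, was at 24.8, 23.8, 18.5 and 23.6 CPM with DMSO and at 28.6, 20.9, 20.2 and 23.8 CPM with cercosporamide (log2 change 0.04, SE 0.202, edgeR adjusted p = 0.967). MKNK2, which encodes MNK2, ranged from 2.14 to 8.80 CPM and from 2.61 to 7.73 CPM. Its pairs went in both directions, from -1.68 to 1.55, so that no change could be resolved (0.24, SE 0.504). EIF4E, the substrate of both kinases, stood at 0.25 (SE 0.212, edgeR adjusted p = 0.699). JAK3 was near the limit of detection, at 0.180 to 0.932 CPM with DMSO and 0.114 to 1.06 CPM with cercosporamide. None of the 14 tested members of the eIF4F and MNK list was called, and their median was -0.032. EIF4A1 and EIF4E3, also of this list, had 0 counts with either treatment and could not be tested. Whether that reflects their expression or the counting of overlapping genes was not tested. EIF4EBP3, which encodes an inhibitor of eIF4E, was the member with the smallest p and did not overlap between treatments, at 0.164 to 0.396 CPM against 0.786 to 0.974 CPM (log2 change 1.80, SE 0.515, edgeR adjusted p = 0.276). It was also near the limit of detection, with counts of 2, 3, 5 and 2 against 7, 10, 8 and 11.

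Among the larger gene groups, the cytosolic ribosomal proteins had nearly all their values on the same side. No member was called, but 37 of 83 were higher at an unadjusted p under 0.05 and none lower (5.95% and 5.15% over all genes tested), and 82 had a positive change, with a median of 0.381. The 37 became 11 without the replicate block and 17 without replicate 4, where the 863 over all genes became 435 and 408. Members called higher were 15 with DESeq2, 25 with the GC trend removed, 31 without replicate 2 and 5 without replicate 3, and none was called lower in these settings. Over all genes, the same settings called 239, 430, 360 and 76 higher. RPL35 went from 1009.8, 1267, 819 and 736 CPM to 1796, 2055, 1223 and 1345 CPM (log2 change 0.74, edgeR adjusted p = 0.195). RPL37 gave 0.84 and RPL39, chosen after its value was seen, 0.90. The medians of the pairs were 0.271, 0.164, 0.770 and 0.436, with the highest in replicate 3. These mRNAs had a median annotated length of 785 nt, although the transcript taken for RPL37 had 7573 nt. Over all tested genes with an annotated transcript (93.8%), the change was related to length (Spearman's rho -0.339 across 13615 genes, which are not independent). The median change was 0.230 in the shortest decile (median 466 nt), 0.172 in the next (894 nt) and -0.246 in the longest (8796 nt). With the length trend of each library removed the median of the ribosomal proteins was 0.284, with 23 higher and none lower at an unadjusted p under 0.05. Over all genes 804 were higher and 474 lower there. RPL37, treated as a long mRNA in that removal, then gave 1.06. The part of length in these values was not tested beyond that removal.

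**Figure D3:**
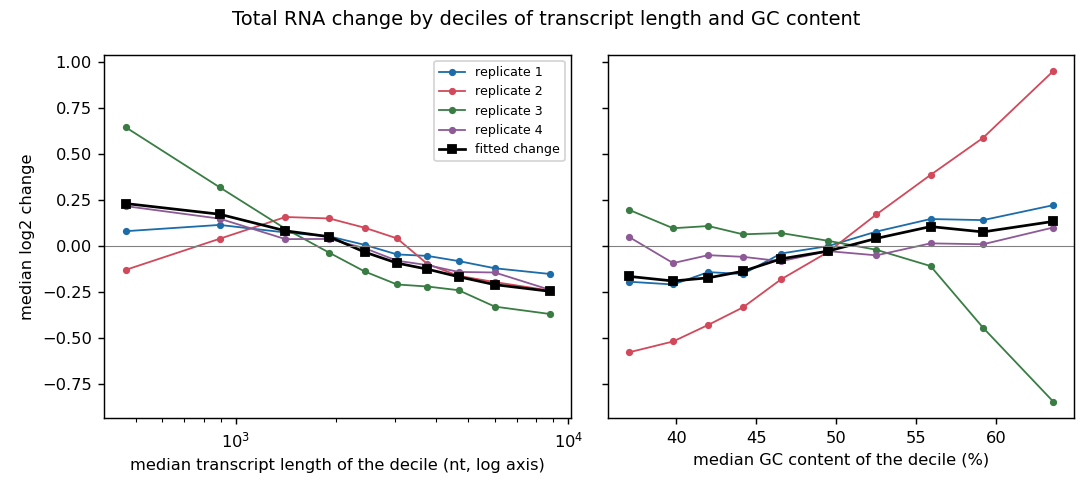
Median log2 change, cercosporamide over DMSO, in deciles of the tested genes by transcript length (left, log axis) and by GC content (right), for each replicate pair and for the fitted change. Against length all 4 pairs end below 0 in the longest decile; against GC content replicates 2 and 3 run in opposite directions, to 0.948 and -0.844 in the richest decile.

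Replication-dependent histone genes, whose mRNAs are short and mostly lack a poly(A) tail, had a median of 0.277 over 45 tested of 66. None was called. At an unadjusted p under 0.05, 6 were higher and 2 lower, where 5.95% and 5.15% of all genes tested were. Members called higher were 3 each with DESeq2, with the GC trend removed and without replicate 3, against 239, 430 and 76 over all genes. The median was 0.069 with the length trend removed. H4C3 did not overlap between treatments, at 2537, 3260.4, 3065 and 1956 CPM against 4618, 5363, 4211 and 4681 CPM (log2 change 0.82, SE 0.166, edgeR adjusted p = 0.195). H3C14 (1.27, edgeR adjusted p = 0.231) has near-identical copies, whose reads the counting may have divided.

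Genes of the endoplasmic reticulum leaned the other way. These encode chaperones and folding enzymes of secreted proteins and are induced by the unfolded protein response. All 24 members were tested and none was called. At an unadjusted p under 0.05, 11 were lower and 1 higher, where 5.15% and 5.95% of all genes tested were. The median was -0.460, the lowest of the lists with at least 6 tested members. CANX, the lectin chaperone calnexin, was at 374, 377, 332 and 479 CPM with DMSO and at 258, 203, 220 and 298 CPM with cercosporamide, without overlap (log2 change -0.68, SE 0.147, edgeR adjusted p = 0.199). DNAJC3, a co-chaperone that restrains the kinase PERK, gave -0.79 (edgeR adjusted p = 0.246). HSP90B1 and HSPA5, chosen after their values were seen, gave -0.53 and -0.78 (edgeR adjusted p = 0.276 for each). HSPA5 encodes BiP, the main chaperone of this compartment, and was at 593, 446, 2482 and 1022 CPM against 525, 338, 859 and 511 CPM, so that DMSO replicate 3 was far above the other libraries. Without replicate 3 the list had 9 lower and 1 higher members and a median of -0.385, and with the length trend removed -0.293, with 7 lower and none higher. Without replicate 4, as without the replicate block, 5 were lower, where the 748 over all genes became 384 and 467. Members called lower were 4 each with DESeq2, with the GC trend removed and without replicate 2, and 1 without replicate 3. Over all genes, the same settings called 108, 133, 107 and 24 lower.

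**Figure D4:**
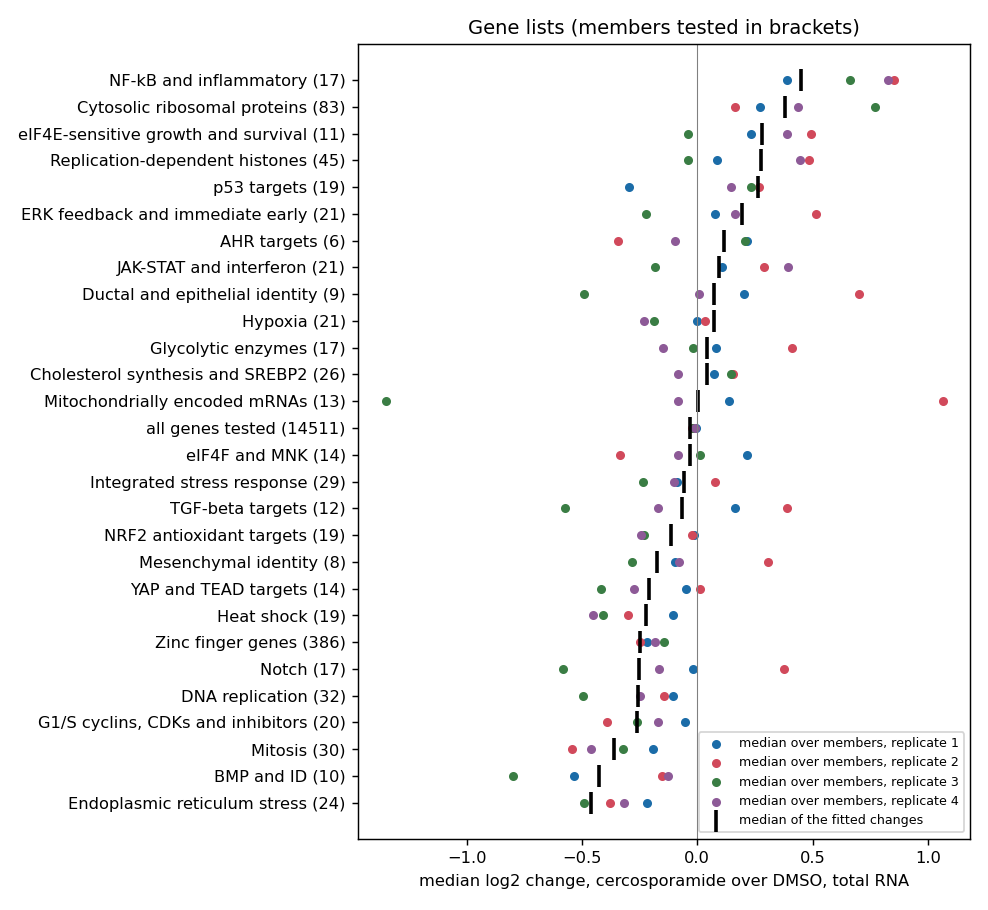
Median log2 change of the tested members of each list (number in brackets) in total RNA, with dots for the 4 replicate pairs and black bars for the fitted change, beside all 14511 genes tested. The NF-kB list (0.452) and the ribosomal proteins (0.381) lie above 0 and the endoplasmic reticulum list (-0.460) and the mitosis list (-0.359) below 0 in all 4 pairs.

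Genes of cell division had lower values on balance, and none was called. In the mitosis list 11 of 30 were lower and 1 higher at an unadjusted p under 0.05 (5.15% and 5.95% of all genes tested), with a median of -0.359. The 11 became 4 without replicate 4, and members called lower were 5 with DESeq2, 3 without replicate 2, 1 without replicate 3 and 2, with 1 higher, with the GC trend removed. Over all genes, the 748 lower became 384 without replicate 4 and 467 without the block. Genes called lower were 108, 107, 24 and 133 in the same settings, with 430 higher in the last. CENPF, a kinetochore protein, did not overlap between treatments, at 55.3, 52.9, 82.5 and 57.0 CPM against 38.7, 39.9, 40.5 and 27.2 CPM (log2 change -0.75, edgeR adjusted p = 0.239). CCNB2, a mitotic cyclin, gave -0.62 and KIF20A, a kinesin of cytokinesis that was chosen after its value was seen, -0.87. The single higher member was UBE2C (0.48), the ubiquitin-conjugating enzyme of the anaphase-promoting complex, with an mRNA of 777 nt. In the DNA replication list 7 of 32 were lower and 1 higher (median -0.257), among them CDC6, which loads the MCM helicase (-0.65), and RRM2, a subunit of ribonucleotide reductase (-0.45). Without replicate 4, as without the block, 2 were lower, and 2 members were called lower with DESeq2 and with the GC trend removed. The list of cyclins, kinases and inhibitors of G1/S had 2 higher and 3 lower of 20. CDK4 gave 0.53 (edgeR adjusted p = 0.273) and CDKN1A, the inhibitor p21, 0.51 (edgeR adjusted p = 0.344).

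The heat shock list had 6 lower and 1 higher of 19 at an unadjusted p under 0.05, where 5.15% and 5.95% of all genes tested were (median -0.223). Without replicate 4, as without the block, 1 was lower, against 384 and 467 over all genes. With DESeq2, with the GC trend removed and without replicate 2, 2 members were called lower, against 108, 133 and 107 over all genes. The last 2 settings also called 1 higher, against 430 and 360 over all genes. DNAJA1, a co-chaperone of HSP70, did not overlap between treatments, at 183, 178, 225 and 231 CPM against 137, 96.0, 149 and 164 CPM (log2 change -0.60, edgeR adjusted p = 0.246), and the mitochondrial chaperone HSPA9 gave -0.50. Among ZNF zinc finger genes, mostly repressors of transcription, 12 of 386 were higher and 28 lower at an unadjusted p under 0.05, where 5.95% and 5.15% of all genes tested were (median -0.247 and median length 3960 nt). ZNF593 (0.63) and ZNF160 (-1.58) had the smallest p, and the median was -0.123 with the length trend removed.

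In the other lists no member was called, and the counts past an unadjusted p of 0.05 stand against 5.95% higher and 5.15% lower over all genes tested. In the integrated stress response list none of 29 was higher and 3 were lower, GARS1 at -0.45 and PSAT1 at -0.39 among them. The list of ERK feedback and immediate early genes had 2 higher of 21, the early response gene IER3 (0.73) and the ERK phosphatase DUSP5 (0.62). Its median was 0.192, and the pairs gave 0.078, 0.516, -0.224 and 0.163. The untested members FOS, FOSB, EGR2, EGR3 and DUSP4 had 58, 14, 6, 5 and 9 counts over the 4 DMSO libraries. With cercosporamide they had fewer, at 14, 5, 1, 0 and 2. Of 11 eIF4E-sensitive growth and survival genes 1 was higher, the anti-apoptotic BCL2L1 (0.66), and BIRC5 (survivin) gave 0.30. The p53 list had 2 higher and 1 lower of 19, with AEN at 0.58. Cholesterol synthesis had 1 higher (EBP, 0.39) and 2 lower of 26. The NRF2 list had 1 higher (TXN, 0.52) and 2 lower of 19, SRXN1 at -0.79 among them. TGF-beta targets had LMCD1 (0.58) higher and SKIL (-0.74) lower of 12, and among 6 AHR genes CYP1B1 was lower (-0.83), with -2.28 in pair 3 and -0.26 to -0.58 in the others, while AHR itself gave 0.33. Of 17 glycolytic enzymes 1 was lower, ALDOC (-1.06, at 0.552 to 2.70 CPM), and TPI1 gave 0.23.

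No member was past an unadjusted p of 0.05 in the lists of hypoxia (21 tested; KDM3A -0.76, P4HA2 -0.35), JAK-STAT and interferon (21; JAK1 -0.51, IRF9 0.71), Notch (17; NOTCH4 0.52, MAML1 -0.56) and YAP and TEAD targets (14; F3 0.81, CRIM1 -0.30). The 13 mitochondrially encoded mRNAs had a median of 0.004, but their pairs gave 0.138, 1.064, -1.349 and -0.082, so that replicates 2 and 3 went in opposite directions. ND3 (0.13) and COX1 (0.20), subunits of complexes I and IV, were within the spread of the replicates. In the ductal list KRT7 (0.63) was 1 of 9 past an unadjusted p of 0.05, where 5.95% of all genes tested were higher. TFF1 gave 1.26 at under 1.5 CPM. The median of the ductal list was 0.072, and its pairs gave 0.201, 0.702, -0.493 and 0.008. In the mesenchymal list TAGLN (0.83) was 1 of 8, with ZEB1 at -0.38 and a list median of -0.174. The acinar CELA3A (0.77) and the immune markers CD68 (0.27) and CD14 (-1.04) were not called.

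The same cells gave a separate readout in their polysome-associated RNA, the mRNA bound by more than 3 ribosomes. There 1485 of 12538 genes were called higher (11.8%) and 1233 lower (9.83%) at an adjusted p under 0.15 (edgeR, replicate block). CXCL8, CCL20, G0S2 and ID2 were also called there, in the same direction. CXCL8 was at 0.413, 0.181, 1.34 and 0.608 CPM in DMSO polysomes and at 3.46, 2.55, 43.2 and 12.0 CPM with cercosporamide, a log2 change of 4.27 (SE 0.420, edgeR adjusted p = 4.9e-05). ID2 gave -2.37 (SE 0.296), CCL20 2.82 (SE 0.545) and G0S2 0.86 (SE 0.244). MYEOV (0.33, edgeR adjusted p = 0.349) and IQGAP1 (-0.36, edgeR adjusted p = 0.3002) were not called. In 1 fit of the 16 libraries the change differed between fractions for 3105 of 12196 genes (25.5%), CXCL8 (1.21 more in polysomes, edgeR adjusted p = 0.067), IQGAP1 (0.93, edgeR adjusted p = 0.0263) and MYEOV (-0.70, edgeR adjusted p = 0.0651) among them. For ID2, CCL20 and G0S2 no difference was resolved, at -0.51 (SE 0.327), 0.23 (SE 0.578) and -0.35 (SE 0.266).

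In the polysomes, where 11.8% of all genes tested were called higher and 9.83% lower, some groups had a median of the opposite sign. Of 83 ribosomal protein mRNAs 21 were called lower and 1 higher there (median -0.269), and of 34 histone mRNAs 21 lower and none higher (median -0.835). All 13 mitochondrially encoded mRNAs were called lower in this fraction (median -1.475). They are translated inside mitochondria, so these values do not report their loading on cytosolic polysomes. In the endoplasmic reticulum list 6 of 23 were called higher and none lower (median 0.202), HSP90B1 at 1.37 and HSPA5 at 0.87 among them, and in the mitosis list 13 of 30 higher and 1 lower (median 0.192). The NF-kB list had 6 of 16 higher and none lower (median 0.519), CCL2 (1.37) and CXCL1 (1.29) among them. CXCL1 was at 0.826, 1.54, 2.16 and 1.65 CPM in DMSO polysomes and at 5.79, 2.20, 5.72 and 1.41 CPM with cercosporamide. The lower value in replicate 4 rests on few counts, because that cercosporamide polysome library was shallower than the other polysome libraries. CCL20, at 0.707 CPM in the same library, also rests on few counts there. The BMP list had 4 of 8 lower and 1 higher (median -0.551), with ID1 at -1.01 and ID3 at -0.73. EIF4E was called higher in polysomes (1.14, SE 0.272, edgeR adjusted p = 0.0127). The polysome libraries had controls of their own, but came from the same plates.

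**Figure D5:**
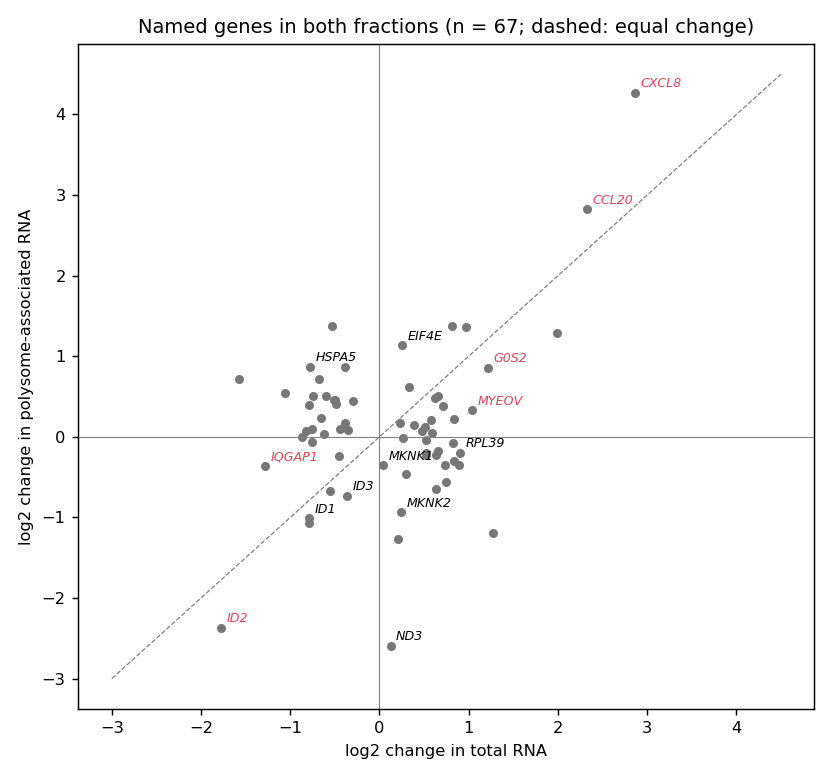
Log2 change, cercosporamide over DMSO, in total RNA (x axis) and in polysome-associated RNA (y axis) for the 67 named genes tested in both; the dashed line marks equal change and red names the called genes. CXCL8 (2.86 and 4.27), CCL20 (2.33 and 2.82) and ID2 (-1.77 and -2.37) lie farthest along the line, whereas HSPA5 (-0.78 and 0.87) and ND3 (0.13 and -2.59) lie off it.

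CID661578, the other compound of the study, was given at 40 µM and read against the same DMSO libraries, so the values stand side by side without a test. In 1 fit of the 12 total RNA libraries the log2 changes with cercosporamide and with CID661578 were 2.89 and 1.63 for CXCL8, 2.27 and 1.59 for CCL20, and 1.18 and 0.76 for G0S2. They were 1.01 and 0.58 for MYEOV and -1.78 and -0.70 for ID2. For IQGAP1 they were -1.30 and -0.0036. CCL2 gave 0.95 and -0.06, CXCL1 1.92 and 0.24, ID1 -0.78 and -0.13, and MKNK2 0.22 and 0.23.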

How the data were processed

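Per the study's methods, reads of 4 biological replicates per treatment were cleaned with BBDuk, aligned to hg38 with HISAT2 and counted with featureCounts against RefSeq genes. Libraries were made by Smart-seq2, which primes on poly(A) tails. The authors deposited raw counts per gene symbol, with no normalization. Default counting ignores strand, so reads of overlapping or antisense genes cannot be told apart, and near-identical copies are uncertain. The labels give RPMI as the medium and the study's methods DMEM.

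Counts were scaled by TMM and tested with edgeR 4.0.16 (R 4.3.3) by a quasi-likelihood fit with the replicate number as a block, on genes with no zero count in the 8 libraries. Adjusted p-values covered all 14511 genes. Genes were called at an adjusted p under 0.15, the threshold of the study, with no minimum fold. The replicate number was taken as a block because the study put the replicate in its own model as a batch. Deviations from group means correlated between same-numbered libraries (r = 0.213, 0.209, 0.231 and 0.215) and from -0.166 to 0.084 otherwise. SE is from the fit, with 3 residual and 7.59 prior degrees of freedom and a biological coefficient of variation of 0.292. At depths of 9378714 to 12064739 counts, the lowest levels rest on few counts. Alternatives used DESeq2 1.42.0 and limma 3.58.1. Transcript length and GC content came from GENCODE.

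Named genes were MKNK1, MKNK2, EIF4E, JAK3, ID1 to ID4, called genes with at least 10 CPM on average and a shared direction in 4 pairs, and the called members of each list or, with none, the 2 with the smallest p. The comparison, members and lists were chosen with earlier results of these data known. Some genes that these rules name are not reported here.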

Additional observations from a re-analysis of the deposited data

Results flagged for a closer look

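The 4 libraries of each treatment were screened for a value far from the other 3, over 72 named genes and 144 groups, of which 15 had such a value; chance gives about 1 in 20. In CPM, replicate 3 was high with DMSO for G0S2 (81.1), DUSP5 (35.1), GARS1 (427), PSAT1 (250.3), SRXN1 (18.9), CCL20 (6.26) and CENPF (82.5). It was high with cercosporamide for EIF4A2 (72.9), PSAT1 (191.6), KDM3A (7.50), CCL20 (42.8) and KRT7 (33.8). GARS1 and PSAT1, an aminoacyl-tRNA synthetase and a serine synthesis enzyme, are both induced by ATF4. The other values were KDM3A in DMSO replicate 2 (14.5), and CENPF (27.2, low) and ZEB1 (6.37, high) in cercosporamide replicate 4.

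Of 67 named genes tested in both fractions, 38 had a change that differed between polysome-associated and total RNA, at an adjusted p under 0.15 for the interaction in 1 edgeR fit of 16 libraries. Named genes were chosen with their total RNA values in view, which the interaction also uses, so this count is not set against that of all genes. The difference, polysome minus total on the log2 scale, was positive for the called genes CXCL8 (1.21) and IQGAP1 (0.93) and negative for MYEOV (-0.70). It was positive for the chaperones HSP90B1 (1.91), HSPA5 (1.65), CANX (1.402), DNAJC3 (1.19), DNAJA1 (1.10) and HSPA9 (0.96), for the division genes CENPF (0.85), CCNB2 (0.66), KIF20A (0.87) and CDC6 (0.89), and for the initiation factors EIF4E (0.90) and EIF4A2 (0.89). It was negative for the ribosomal proteins RPL35 (-1.30), RPL37 (-1.14) and RPL39 (-1.09), the histones H4C3 (-0.90) and H3C14 (-2.43), the mitochondrially encoded ND3 (-2.73) and COX1 (-1.46), and MKNK2 (-1.20). The zinc finger genes differed, ZNF160 (2.22) and ZNF593 (-1.27). The remaining positive values were SKIL (1.25), CRIM1 (0.75), GARS1 (0.54), CYP1B1 (0.94), JAK1 (0.97), ALDOC (1.54) and ZEB1 (1.25), and the remaining negative values IER3 (-1.08), BCL2L1 (-0.83), BIRC5 (-0.76), CDK4 (-0.74), KRT7 (-0.93) and LIF (-1.25).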

How the results depend on the processing

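Against 4 genes called higher and 2 lower, no gene was called in either direction by edgeR without the replicate block (435 higher and 467 lower at an unadjusted p under 0.05). DESeq2 called 239 and 108, edgeR with DESeq2 size factors 7 and 2, limma-trend 1 and 0, filterByExpr 1 and 0, no filter on low counts 260 and 91, the filter of no zero in all 24 libraries 1 and 0, the 12 total RNA libraries in 1 fit 6 and 4, and an adjusted p under 0.05 1 and 0. Removing the GC trend of each library with the replicate block kept gave 430 and 133, and removing the length trend, chosen after seeing the data, 1 and 1. Leaving out a replicate gave 0 to 360 higher and 0 to 107 lower, the most without replicate 2 and none without replicate 4. The cause of these differences was not tested. The 6 called genes kept their direction in all these settings. Values that changed sign, none of them called, were those of MKNK2 (-0.243 to 0.856 when a replicate was left out), JAK3 (-1.24 to 0.111), COX1 (-0.0597 to 0.567) and ND3 with the length trend removed (-0.0699).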
